A study of Sus scrofa with 10 samples.

Results

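Immediate early genes were described in RNA from the hypothalamus of 10 backcross pigs of Iberian and Landrace origin. The genes were chosen by name, as FOS, FOSB, JUN, JUNB, EGR1, EGR2, EGR3, NR4A1, ARC and BTG2. Of these 10 genes, 6 were found under their symbol among the 25009 gene rows of the table, namely FOS, JUNB, EGR2, EGR3, NR4A1 and BTG2. EGR1 was listed under the spelling EGR-1 and was matched by its Ensembl identifier, so it is described beside the 6 and not counted with them. FOSB, JUN and ARC were matched to no row and were not analysed here. The pigs formed 2 groups of 5, one of high growth and fatness and one of low growth and fatness. The labels give no treatment, age or sex, and both groups share the same cross.

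Immediate early genes are switched on within minutes of a stimulus, from transcription factors that are already present in the cell, so that no new protein is needed first. In the brain their transcripts rise after neuronal firing, hormones, growth factors or injury, and they are used as markers of recently activated cells. FOS and JUNB are subunits of the dimeric factor AP-1. The EGR proteins are zinc finger factors, NR4A1 is an orphan nuclear receptor, and BTG2 is an antiproliferative protein that recruits the deadenylase complex to messenger RNA.

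Each gene had 1 FPKM value per group (fragment counts scaled by transcript length and by the number of mapped fragments) between 2 confidence bounds, a lower one and an upper one, all made by the authors. Bounds are given in parentheses. The study asked how the hypothalamic transcriptome differs with growth and fatness. There was no value per animal, so no difference below has a replicate check or a p-value, and the depth of each library is unknown. In a bulk tissue sample, fewer cells that express a gene and less RNA per cell cannot be told apart.

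All 6 genes, and EGR1, had the lower value in the high-growth group. The lower bound of the low-growth group lay above the upper bound of the high-growth group for JUNB and BTG2, whereas the intervals of FOS, EGR1, EGR2, EGR3 and NR4A1 overlapped. The low-to-high ratio of FPKM was 3.28 for JUNB and 3.21 for BTG2, and between 1.85 and 2.01 for FOS, EGR1, EGR2 and NR4A1. EGR3, at the edge of detection, had a ratio of 1.34.

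**Figure D1:**
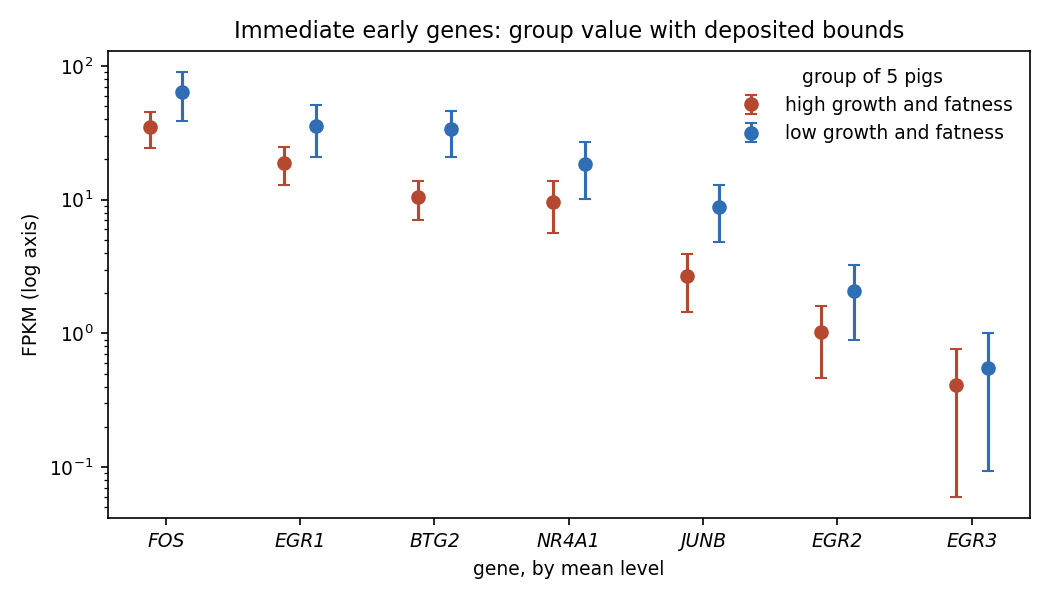
FPKM (log axis) of the 6 immediate early genes and EGR1 in the high-growth group (red) and the low-growth group (blue), with the deposited lower and upper bounds as bars and genes ordered by mean level. The blue point lies above the red point for every gene, and the bars are apart for BTG2 and JUNB.

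FOS, a stimulus-induced subunit of AP-1, had the highest level of the genes described. It was at 34.8 FPKM (24.5 to 45.1) in the high-growth group and 64.4 FPKM (38.6 to 90.3) in the low-growth group. The intervals overlapped by 6.46 FPKM, and the bounds alone allow a low-to-high ratio anywhere from 0.857 to 3.69. The row of FOS (ENSSSCG00000002383) covers 3465 bases of chromosome 7 (104293657 to 104297121) on pig genome build Sscrofa10.2.

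JUNB, a Jun protein that pairs with FOS and can weaken the activity of c-Jun, was at 2.68 FPKM (1.45 to 3.91) in the high-growth group. In the low-growth group it was at 8.80 FPKM (4.80 to 12.8), so the intervals were apart by 0.886 FPKM. The bounds allow a ratio from 1.23 to 8.83. Relative to FOS, JUNB stood at 7.70% of the FPKM of FOS in the high-growth group and 13.6% in the low-growth group. The row of JUNB (ENSSSCG00000013735) lies on chromosome 2 (66505186 to 66507024).

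BTG2 had the widest separation in FPKM. It was at 10.5 FPKM (7.11 to 13.9) in the high-growth group and 33.7 FPKM (21.0 to 46.5) in the low-growth group, and the intervals were apart by 7.09 FPKM. The bounds allow a ratio from 1.51 to 6.54. Its level was 30.2% of that of FOS in the high-growth group and 52.3% in the low-growth group, so BTG2 had the larger ratio of the 2, although the ranges that the bounds allow for the ratios of BTG2 and FOS overlap. The row (ENSSSCG00000028322) lies on chromosome 9 (70327445 to 70331400).

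Among the EGR genes, EGR1, a factor used as a marker of activated neurons, was at 18.8 FPKM (12.8 to 24.9) in the high-growth group and 35.9 FPKM (20.8 to 50.9) in the low-growth group. The row, ENSSSCG00000014336 on chromosome 2 (146155820 to 146160020), stood at 54.2% of the FPKM of FOS in the high-growth group and 55.7% in the low-growth group. EGR2, also known as a factor that Schwann cells need for myelination, was much lower, at 1.03 FPKM (0.468 to 1.59) against 2.07 FPKM (0.893 to 3.25). EGR2 was at 5.47% of the level of EGR1 in the high-growth group and 5.78% in the low-growth group, so the proportion of the point values was nearly the same. The bounds allow a low-to-high ratio from 0.838 to 3.98 for EGR1 and from 0.562 to 6.95 for EGR2. EGR3, at 0.411 FPKM (0.0602 to 0.762) against 0.553 FPKM (0.0937 to 1.01), was below the filter of a mean of at least 1 FPKM. EGR2 (ENSSSCG00000010224, 71516951 to 71520952) and EGR3 (ENSSSCG00000009630, 7426276 to 7428160) both lie on chromosome 14.

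NR4A1, a nuclear receptor that acts without a known hormone and is induced by cyclic AMP and calcium, was at 9.70 FPKM (5.62 to 13.8) in the high-growth group and 18.6 FPKM (10.1 to 27.0) in the low-growth group. The intervals overlapped. NR4A1 was at 27.9% of the FPKM of FOS in the high-growth group and 28.8% in the low-growth group. These are proportions of point values. The bounds allow a low-to-high ratio from 0.734 to 4.81 for NR4A1, so a steady proportion cannot be read from them. Its row (ENSSSCG00000028326) lies on the unplaced scaffold GL892233.1 (21 to 1787) and is the scaffold's 1 row in the table, so the gene model may be incomplete and the level is uncertain.

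The order of levels was the same in both groups: FOS, EGR1, BTG2, NR4A1, JUNB, EGR2 and EGR3. Most neighbours in that order had overlapping intervals. The exceptions were NR4A1 above JUNB in the high-growth group and JUNB above EGR2 in the low-growth group. Against all rows at a mean of at least 1 FPKM, FOS stood above 87.9% of rows in the high-growth group and 92.9% in the low-growth group. JUNB stood above 20.0% and 54.8%, and BTG2 above 62.2% and 85.9%.

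Differences are given from here on as log2(FPKM + 1), high-growth minus low-growth, on which weakly expressed genes appear to change less than their ratio says. BTG2 was at -1.59 and JUNB at -1.41. FOS (-0.87), NR4A1 (-0.87) and EGR1 (-0.89) lay within a narrow range of each other, and EGR2 was at -0.60. EGR3 was at -0.14. Of the 15281 rows at a mean of at least 1 FPKM, 120 had a lower difference than BTG2, 143 than JUNB, 307 than EGR1, 322 than FOS and 651 than EGR2.

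**Figure D2:**
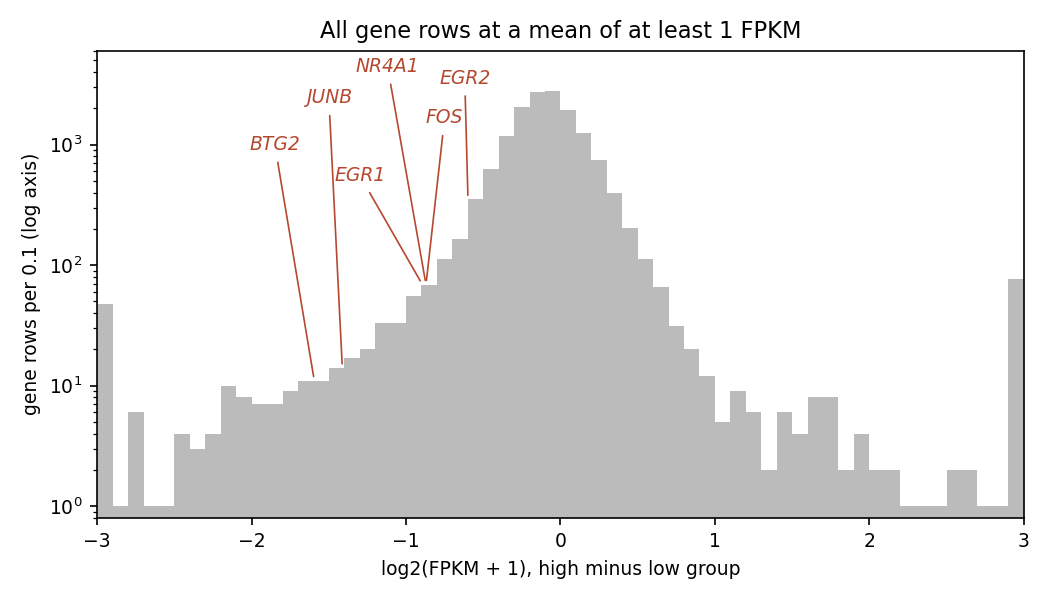
Number of gene rows (log axis) by the log2(FPKM + 1) difference, high minus low group, in steps of 0.1, for the 15281 rows at a mean of at least 1 FPKM, with the outermost bars holding all rows beyond the axis. The tested immediate early genes and EGR1 lie on the left flank, from -1.59 (BTG2) to -0.60 (EGR2).

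These values are to be read against a general lean of the table towards the low-growth group. Of all tested rows, 67.7% had the lower value in the high-growth group and the median difference was -0.10. Both scalings that were tried moved that median to about 0, and the differences of FOS, JUNB and BTG2 were then -0.70, -1.36 and -1.47 with quantile normalization. Of the 6 genes, 5 passed the filter, and all 5 were lower in the high-growth group. Intervals lay apart for 2 of the 5, against 0.432% of all tested rows lower in the high-growth group and 0.0262% higher. A low-to-high ratio of at least 2 was reached by 3 of the 5, BTG2, JUNB and EGR2, against 2.44% of all tested rows, and 1.32% reached it in the other direction. EGR2, at 2.01, was below 2 under both scalings. A ratio of at least 1.5 was reached by all 5, against 6.71% of all tested rows lower in the high-growth group and 3.25% higher. The median difference of the 5 was -0.87, and it was the same to 2 decimals without BTG2.

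Intervals were widest, relative to the value, for the genes of lowest level, EGR3 and EGR2. For FOS the half-width of the interval came to 29.6% of the value in the high-growth group, where rows within a factor of 1.2 of its level had a median of 29.8%. In the low-growth group it was 40.1% against 35.3%. EGR1 was at 32.0% against 31.8% in the high-growth group and at 41.9% against 35.6% in the other. For BTG2 it was 32.3% against 34.7% in the high-growth group and 37.8% against 35.7% in the low-growth group, and for JUNB 45.9% against 48.1% and 45.5% against 42.5%. NR4A1 had wider intervals than rows of its level in both groups, 42.0% against 35.4% and 45.5% against 37.5%. For EGR3 the half-width was 85.4% and 83.1% of the value, and the bounds allow a low-to-high ratio from 0.123 to 16.8.

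**Figure D3:**
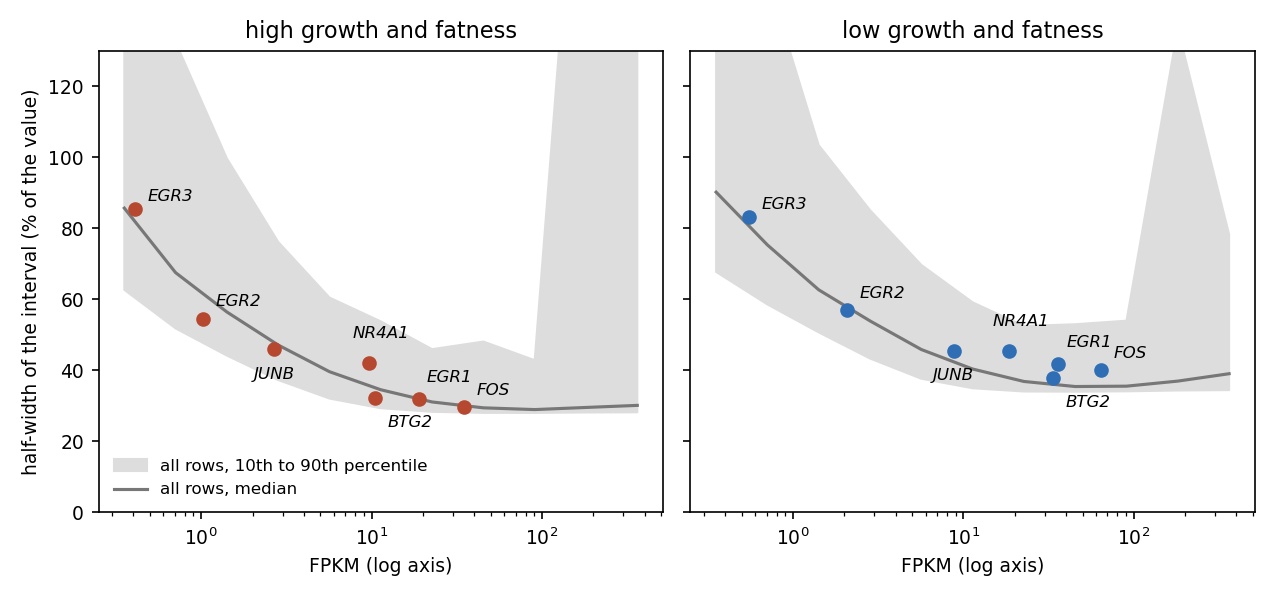
Half-width of the deposited interval, as percent of the value, against FPKM (log axis) in the high-growth group (left) and the low-growth group (right), with the median (line) and the 10th to 90th percentile (grey) of all rows in bins of level. NR4A1 lies above the line in both groups, and FOS and EGR1 lie above it in the low-growth group, with half-widths from 29.6% for FOS to 85.4% for EGR3 in the high-growth group.

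The rows of the 6 genes shared a short span, from 1767 to 4002 bases with a median of 2675, whereas the median of all tested rows was 19391 bases. Spans no longer than 4002 bases were found in 16.6% of tested rows. Those 2540 rows had a median difference of -0.12, and 67.2% of them were lower in the high-growth group, close to the 67.7% of all tested rows. Their intervals lay apart, lower in the high-growth group, in 0.709%.

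No other row of the table overlapped any of the 7 genes. Of the 12 nearest rows on either side, 11 were at a mean of at least 1 FPKM, with a median difference of -0.22. PRDX2, a peroxiredoxin 2611 bases from JUNB, was at 213 FPKM in the high-growth group and 267 FPKM in the low-growth group, a difference of -0.32. HOOK2, on the other side of JUNB, was at 1.69 against 1.67 FPKM. TMED10 and FLVCR2, beside FOS, differed by -0.31 and -0.40. The intervals of 1 neighbour lay apart. This was FMOD, which encodes the collagen-binding proteoglycan fibromodulin and lies 25163 bases from BTG2, at 6.38 FPKM (4.20 to 8.57) in the high-growth group and 15.6 FPKM (9.22 to 21.9) in the low-growth group. The row on the other side of BTG2, FMO4, differed by -0.05.

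Relatives of the AP-1 subunits were compared next. Of 9 listed genes, 7 were found and 6 were at a mean of at least 1 FPKM, and all 6 were lower in the high-growth group, against 67.7% of all tested rows, with a median difference of -0.21. ATF3, a stress-induced factor of the same dimerising class, was at 8.59 FPKM (5.51 to 11.7) in the high-growth group and 23.5 FPKM (13.8 to 33.2) in the low-growth group. Its intervals lay apart, for 1 of the 6 genes, against 0.432% of all tested rows. MAFF, a small Maf protein, was at 2.23 against 5.04 FPKM, with intervals that overlapped. ATF2, which is regulated largely by phosphorylation, differed by -0.15, and the Fos relative FOSL1 was at 1.34 against 1.47 FPKM. The values of ATF3 and MAFF thus differed by more than a factor of 2, while those of ATF2 and FOSL1 were close.

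In the list of EGR, NR4A and BTG relatives and their partners, 9 of 11 genes were tested. Of these, 8 were lower in the high-growth group, against 67.7% of all tested rows. The 8 include NAB2, at 0.972 FPKM in the high-growth group against 1.12 FPKM, which passed the filter only through its low-growth value. None of the 9 had intervals apart, against 0.432% of all tested rows lower in the high-growth group, and the median difference was -0.26. The NR4A receptors resembled NR4A1 in direction. NR4A2 stood at 4.39 FPKM (2.84 to 5.94) against 7.06 FPKM (4.27 to 9.85). NR4A3 stood at 1.28 FPKM (0.713 to 1.86) against 2.60 FPKM (1.40 to 3.80). The BTG family was less uniform. BTG1 stood at 46.2 FPKM (33.0 to 59.3) against 56.7 FPKM (37.5 to 76.0). BTG3 was at 10.1 against 8.96 FPKM, the 1 tested gene of the list with the higher value in the high-growth group. TOB1, a related antiproliferative protein, was at 17.9 against 21.5 FPKM. CNOT7, a deadenylase that BTG proteins bind, was at 40.5 against 44.3 FPKM. NAB1, a corepressor of EGR proteins, differed by -0.36, and EGR4, below the filter, was at 0.487 against 0.396 FPKM.

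Other genes known for rapid induction followed in larger number. Of 33 listed genes, 31 were found and 30 tested, of which 29 were lower and 1, GADD45G, was higher in the high-growth group, where 67.7% of all tested rows were lower. The median difference was -0.48. Intervals lay apart for 1 of the 30, against 0.432% of all tested rows. This was ZFP36, an RNA-binding protein that shortens the life of cytokine transcripts, at 6.53 FPKM (4.02 to 9.04) in the high-growth group and 16.0 FPKM (9.55 to 22.5) in the low-growth group. A ratio of at least 2 was reached by 7 of the 30, all lower in the high-growth group, against 2.44% of all tested rows. The 7 include IER2, at 0.804 FPKM in the high-growth group against 1.88 FPKM, which passed the filter only through its low-growth value. The phosphatase DUSP1, which switches off MAP kinases, was at 16.5 FPKM (11.3 to 21.6) against 32.3 FPKM (20.1 to 44.6). IER3, a stress-inducible survival factor, was at 2.08 FPKM (0.958 to 3.20) against 6.24 FPKM (2.98 to 9.50). PLK2, a polo-like kinase induced by synaptic activity, was at 5.88 against 5.95 FPKM, and the neuron-specific factor NPAS4, below the filter, at 0.277 FPKM (0.0793 to 0.475) against 0.138 FPKM (0.0151 to 0.262). One listed row is named KLF2 in the table and KLF4 in the reference table, so it was counted once and is uncertain.

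A further list of genes regulated by neuronal activity, labelled late genes, did not share that direction as a whole. How fast these genes respond cannot be seen in these data. Of 12 listed genes, 10 were tested, 6 higher and 4 lower in the high-growth group, where 67.7% of all tested rows were lower. The median difference was 0.10. None had intervals apart, against 0.432% of all tested rows lower in the high-growth group and 0.0262% higher. The granin SCG2 was at 528 FPKM (357 to 698) in the high-growth group and 446 FPKM (233 to 660) in the low-growth group, and the neuropeptide precursor VGF at 88.8 FPKM (51.7 to 126) against 70.4 FPKM (32.7 to 108). PENK, the precursor of the enkephalins, had 136 FPKM (96.6 to 175) against 164 FPKM (107 to 221). The neurotrophin BDNF differed by -0.25. PTGS2, the inducible cyclooxygenase, had the lowest difference of the list (-0.82), at 2.11 FPKM (1.10 to 3.12) against 4.48 FPKM (2.30 to 6.65).

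The regulators that act upstream of immediate early genes had values near each other in both groups. All 28 that were found of 29 were tested, 15 lower and 13 higher in the high-growth group, where 67.7% of all tested rows were lower. Their differences ran from -0.36 to 0.21, with a median of -0.02. None had intervals apart, against 0.432% of all tested rows lower in the high-growth group and 0.0262% higher. None reached a ratio of 2, against 2.44% lower and 1.32% higher. In a list of 28, a count of none is near those shares. The row named CREB1 in the table carries an identifier that the reference table names ATF1, and another row is named ATF1. Both rows are among the 15, so their names and their place in the count are uncertain. SRF, the serum response factor that binds FOS and EGR1 promoters, stood at 7.46 FPKM (5.10 to 9.83) against 9.08 FPKM (5.75 to 12.4). The MAP kinase MAPK3, which relays growth factor signals to SRF partners, had 56.5 against 68.2 FPKM, and its activator MAP2K1 differed by -0.04. ELK1, a partner of SRF, was at 4.73 against 4.09 FPKM and CAMK2A, a calcium-dependent kinase of neurons, at 48.1 against 41.5 FPKM. Transcript levels say nothing of the phosphorylation through which these proteins act.

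**Figure D4:**
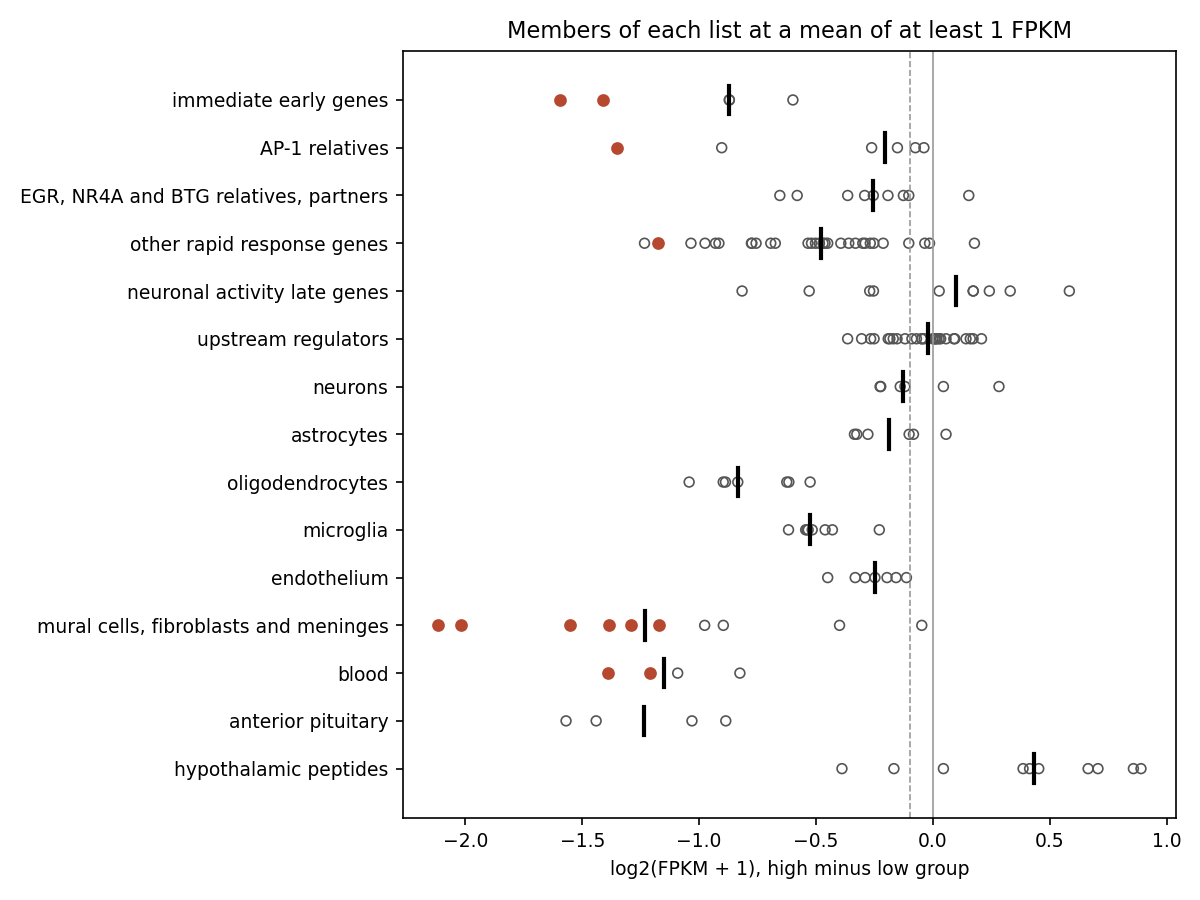
Log2(FPKM + 1) difference, high minus low group, of each tested gene in the immediate early list and in 14 further lists, with list medians as black bars, filled red points where the deposited intervals lay apart, the solid line at 0 and the dashed line at the median of all tested rows (-0.10). FOS and NR4A1 coincide at -0.87, the median of the immediate early genes. The medians of upstream regulators (-0.02) and of the list labelled neuronal activity late genes (0.10) lie near 0.

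The tissue label was checked with 11 hypothalamic genes, which were all found, 10 of them at a mean of at least 1 FPKM. Their summed level was 1080 FPKM in the high-growth group and 801 FPKM in the low-growth group. The summed bounds overlapped, at 617 to 1543 FPKM in the high-growth group and 398 to 1207 FPKM in the low-growth group. Of the 10, 8 were higher in the high-growth group, against 32.3% of all tested rows. None of the 10 had intervals apart, against 0.0262% of all tested rows higher in the high-growth group. A high-to-low ratio of at least 2 was reached by 1 of them, against 1.32% of all tested rows. Their median difference was 0.43, opposite in sign to that of the immediate early genes. The factor SIM1, below the filter, was at 0.420 and 0.507 FPKM. Most tested markers of other cells were also lower in the high-growth group, as were 67.7% of all tested rows. All 10 tested markers of mural cells, fibroblasts and meninges were lower in the high-growth group, at 104 against 257 FPKM summed and a median of -1.23. Intervals lay apart for 6 of these 10, against 0.432% of all tested rows. A low-to-high ratio of at least 2 was reached by 8 of them, against 2.44% of all tested rows. All 4 tested blood markers (161 against 393 FPKM summed over 7) were lower there as well. Of these, 2 had intervals apart and all 4 reached that ratio. All 4 tested anterior pituitary markers (303 against 640 FPKM summed over 7) were lower too and reached that ratio, but none had intervals apart. Their bounds summed over 7 overlapped, at 186 to 421 FPKM in the high-growth group and 124 to 1157 FPKM in the low-growth group. Among the blood and pituitary markers, AHSP (0.943 against 2.44 FPKM) and TSHB (0.907 against 2.53 FPKM) passed the filter only through the low-growth group. The counts of these 2 lists therefore lean towards that group. Oligodendrocyte markers had a median of -0.83 over 7 and microglial markers of -0.52 over 8, all lower in the high-growth group, while neuronal markers were at 1443 against 1506 FPKM summed, with a median of -0.13 over 6. The endothelial median was -0.25 over 7 and the astrocyte median -0.19 over 6. No tested marker of oligodendrocytes, microglia, neurons, endothelium or astrocytes had intervals apart, where 0.432% of all tested rows were apart and lower in the high-growth group. GFAP was listed at 0 in both groups without an estimate. The part of these cells in the differences of the immediate early genes was not tested.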

How the data were processed

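RNA-seq of the hypothalamus was deposited as 1 table of FPKM, with a status flag and 1 value between a lower and an upper bound for each gene row and group, per the file headers. TopHat2 2.0.5 with Bowtie2, Cufflinks 2.0.2, Trim Galore, FastQC, CASAVA and build Sscrofa10.2 are listed in the submitters' processing notes, without their settings. How the 5 animals of a group were combined, and the confidence level of the bounds, were not given in the sources used here. Depth is unknown.

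The 58 rows whose status was not OK in either or both groups were left out, and rows at a mean of at least 1 FPKM were tested (15281), in the sense of being compared with the rules below. Limma had been planned only for values per animal and was not run. A z value from the bounds was not computed either, since it is no test across animals. In its place, intervals that lay apart and an FPKM ratio of at least 2 were counted. Log2 values use a pseudocount of 1. Genes were matched by the name in the table, otherwise by identifier, with 1 row per symbol (placed chromosome first, then the higher mean). The table's starts count from 0 and were raised by 1. Named genes were all members and, from each of the 5 related lists, genes with intervals apart, otherwise the 3 highest by mean FPKM, with relatives that complete a family. Of these, 1 gene is not reported here. ATF2, MAFF, NAB1, NAB2, GADD45G, DUSP1, IER2, IER3, PLK2, NPAS4, BDNF, PTGS2, SRF, ELK1, CAMK2A, SIM1, AHSP, TSHB and the chromosomal neighbours were named after their values were seen. Members and lists were chosen with earlier results of these data known. The computation was tested on simulated data and used Python 3.11.15, pandas 2.3.3 and NumPy 2.4.6.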

Additional observations from a re-analysis of the deposited data

How the results depend on the processing

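The count of genes with an FPKM ratio of at least 2, 3 of 5, became 5 at a ratio of at least 1.5, which 6.71% of tested rows also reached as lower in the high-growth group. It was 2 of 5 under median-of-ratios scaling (2.04% of all rows compared) and under quantile normalization (2.15%), where EGR2 dropped out. The count was 2 of 4 at a mean of at least 5 FPKM (1.79% of all rows compared) and 3 of 6 without the filter (6.66%). The count of intervals apart was 2 under all 7 alternatives, where 0.273% to 0.479% of all rows compared were apart and lower in the high-growth group. Only the 2 scalings change the bounds, whereas the others change the filter, the fold rule or the genes counted. In the 4 settings compared by gene, all 6 genes kept the lower value in the high-growth group. A pseudocount cannot change that direction, and quantile normalization left EGR3, below the filter, unscaled. The median difference ranged from -1.14, with 4 genes at a mean of at least 5 FPKM, to -0.76 after quantile normalization. JUNB passed that stricter filter only through its low-growth value, at 2.68 FPKM in the high-growth group against 8.80 FPKM. EGR2 did not pass it. The median of -1.14 and the 2 of 4 are therefore no independent check. With a pseudocount of 0.1 the difference was -0.94 for EGR2, -0.35 for EGR3 and -1.68 for JUNB. Quantile normalization of the count of intervals apart, the addition of EGR1, the restriction to placed chromosomes and the omission of BTG2 with JUNB were chosen after seeing the data. No paired analysis was possible because the table gives 1 value per group, and for the same reason no animal could be left out.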
